A study of Homo sapiens with 40 samples.

Results

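RNA from FaDu spheroids that received epidermal growth factor (EGF) together with the MEK inhibitor AZD6244 was compared with RNA from FaDu cells taken as non-invasive out of spheroids that received EGF alone. The comparison rests on 8 of the 40 libraries of the series, 4 in each group, which were chosen by their titles and column names. FaDu is a squamous carcinoma line from a hypopharyngeal tumour, with the genotype label wildtype and the photoconvertible fluorescent protein Dendra2 in all groups. The spheroids of both groups were embedded in type I collagen, kept for 72 h and freed with collagenase and Accutase, with cells of 40 spheroids going into each treatment and sorted before RNA extraction. MEK inhibitor spheroids received 9 nM EGF and 100 nM AZD6244, and their cells carry the label unselected. Non-invasive cells came from spheroids with 9 nM EGF and no inhibitor in which invasive areas had been photoconverted, and they were separated by that colour. The drug and the selection therefore differ together between these groups and their parts cannot be told apart. Titles, descriptions and column names call the selected cells non-invasive, whereas a separate label on cell selection reads invasive for both selected groups, and the grouping here follows the titles.

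Another 2 groups of unselected FaDu spheroids, with 4 libraries each, served as further references. Cetuximab spheroids received 9 nM EGF with 10 µg/mL cetuximab, a therapeutic antibody against EGFR, and serum-free spheroids received neither EGF nor a drug. The MEK inhibitor and non-invasive groups of Kyse30, an oesophageal squamous carcinoma line that also carries Dendra2, had the same treatments and gave the same contrast in a second line. The labels do not tell whether replicates came from separate cultures, and the p-values cover the spread among these samples alone, which may be technical.

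EGF binds its receptor EGFR, a tyrosine kinase, which passes the signal through RAS and RAF to the MEK kinases and from these to ERK. Active ERK drives transcription through ETS and AP-1 family factors and supports entry into the cell cycle, motility and matrix remodelling in squamous epithelia. It also induces its own inhibitors, the DUSP phosphatases and the Sprouty and SPRED proteins, so their mRNAs are commonly read as outputs of the pathway. AZD6244 (selumetinib) holds MEK inactive, whereas other routes from EGFR, such as PI3 kinase, are not its direct targets.

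Total counts ran from 2814487 to 4441190 in the MEK inhibitor libraries and from 4320744 to 4526154 in the non-invasive libraries. MEK inhibitor replicate 1 was the shallowest of these and stood apart, with 14.6% of its counts from mitochondrial genes and 2.87% from MALAT1. The other 3 MEK inhibitor libraries held 7.87 to 11.1% and 1.15 to 1.65% of these, and the non-invasive libraries 7.50 to 11.5% and 0.766 to 1.62%. The table held 8 of 8 listed squamous epithelial markers, summing to 5465 to 6554 CPM (counts scaled to library size) in MEK inhibitor libraries and 4564 to 5381 CPM in non-invasive libraries. It held 1 of 8 fibroblast markers, COL1A1, at 9.36 to 24.7 CPM in MEK inhibitor libraries and 4.43 to 10.9 CPM in non-invasive libraries, called higher but not without any of 4 single libraries. It held 0 of 7 leukocyte markers and 1 of 5 endothelial markers, CDH5, at 0 to 3.17 CPM in MEK inhibitor libraries and 0 to 0.224 CPM in non-invasive libraries. By edgeR's quasi-likelihood F test with Benjamini-Hochberg adjustment, 3602 of 12131 tested genes (29.7%) had an adjusted p under 0.05 and are described as called. Of all tested genes 1796 (14.8%) were higher and 1806 (14.9%) lower in the MEK inhibitor group, and the median log2 fold change was 0.03. All 20 FaDu libraries shared 1 fit, and 1993 genes were called when all 40 libraries shared it, of which 1951 were among the 3602. In 3812 genes (31.4%) the 4 libraries of one group lay wholly above or below those of the other.

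Levels are CPM with TMM scaling, and a value after ± is the SD over 4 libraries for a level. For a log2 fold change it is an approximate standard error, called standard error here. It was derived as the absolute log2 fold change divided by the square root of the test's F value, not estimated by the fit. Fold changes are MEK inhibitor over the named reference, and every adjusted p comes from the edgeR test above. In such bulk RNA, fewer cells of a type and less RNA per cell cannot be told apart.

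ERK target genes were sharply lower in MEK inhibitor spheroids than in non-invasive cells. Of 16 tested feedback inhibitors of the pathway 11 fell and 1 rose, with a median log2 fold change of -1.67, and of 10 genes of a published MAPK activity score 9 fell and 0 rose (median -3.50). The lists share 5 genes, and 14.9% of all genes were lower and 14.8% higher. DUSP6, the phosphatase that inactivates ERK, had 4.23, 11.99, 9.51 and 12.97 CPM in MEK inhibitor libraries, against 366, 405, 417 and 519.6 CPM in non-invasive libraries. PHLDA1, a pleckstrin-domain protein induced by ERK, had 20.4, 37.4, 26.5 and 27.4 CPM with the MEK inhibitor, against 381, 519, 641 and 641 CPM in non-invasive cells. Neither gene's groups overlapped, and every MEK inhibitor library was far below the lowest non-invasive library. The log2 fold changes were -5.42 ± 0.33, adjusted p = 2.3e-10, for DUSP6 and -4.28 ± 0.23, adjusted p = 1.3e-12, for PHLDA1.

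SPRY2, a Sprouty protein that blocks signalling upstream of RAS, had 0, 9.22, 5.58 and 1.91 CPM with the MEK inhibitor, against 69.02, 97.8, 109.7 and 109.6 CPM in non-invasive cells (log2 fold change -4.44 ± 0.47, adjusted p = 8.9e-07). It was at 0 in MEK inhibitor replicate 1 and low in the other 3, with no overlap. Its relative SPRY4 averaged 0.316 ± 0.406 CPM with the MEK inhibitor and 8.93 ± 3.02 CPM in non-invasive cells (log2 fold change -4.55 ± 0.63, adjusted p = 5.2e-06). SPRY1, at 3.17 ± 3.22 CPM with the MEK inhibitor and 1.79 ± 1.19 CPM in non-invasive cells, was not called (adjusted p = 0.42). The SPRED proteins, which restrain RAF, were lower for all 3 members, with log2 fold changes of -0.93 ± 0.20 for SPRED1, -1.15 ± 0.29 for SPRED2 and -2.52 ± 0.57 for SPRED3 (adjusted p = 0.00067, 0.004 and 0.0013). DUSP7, another ERK phosphatase, averaged 22.8 ± 6.01 CPM with the MEK inhibitor and 119.9 ± 26.4 CPM in non-invasive cells (log2 fold change -2.38 ± 0.54, adjusted p = 0.0033). ERRFI1, which binds and inhibits EGFR itself, averaged 20.5 ± 6.10 CPM with the MEK inhibitor and 82.98 ± 20.2 CPM in non-invasive cells (log2 fold change -2.001 ± 0.29, adjusted p = 1.1e-05). The nuclear phosphatases DUSP4 and DUSP5 fell less evenly. DUSP4 had 25.7, 34.8, 5.37 and 2.34 CPM with the MEK inhibitor, against 95.9, 71.7, 114 and 123 CPM in non-invasive cells (log2 fold change -2.61 ± 0.56, adjusted p = 0.0023). DUSP5 had 98.3, 114, 31.6 and 33.6 CPM with the MEK inhibitor, against 147, 185, 187 and 181 CPM in non-invasive cells (log2 fold change -1.34 ± 0.36, adjusted p = 0.0091). In both genes MEK inhibitor replicates 1 and 2 were well above replicates 3 and 4, and all 4 stayed below the non-invasive range. LRIG1, a membrane protein that promotes EGFR degradation, was the 1 member that rose, at 4.07 ± 1.85 CPM with the MEK inhibitor and 0.347 ± 0.138 CPM in non-invasive cells (log2 fold change 3.42 ± 0.64, adjusted p = 0.00018). DUSP1, SOCS3 and TRIB1 were not called, with log2 fold changes of -0.43 ± 0.45, 1.02 ± 0.56 and -0.76 ± 0.40 (adjusted p = 0.51, 0.19 and 0.17).

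Among 23 tested ETS, AP-1 and immediate early factors 9 fell and 1 rose (median -0.48). The PEA3-type ETS factors that ERK induces all fell, ETV4 the furthest. ETV4 had 0, 3.00, 1.45 and 1.06 CPM with the MEK inhibitor, against 30.3, 27.7, 35.4 and 41.4 CPM in non-invasive cells (log2 fold change -4.49 ± 0.38, adjusted p = 9.3e-10). ETV5 averaged 4.58 ± 3.15 CPM with the MEK inhibitor and 31.8 ± 4.51 CPM in non-invasive cells (log2 fold change -2.72 ± 0.32, adjusted p = 2.3e-07). ETV1 averaged 1.35 ± 0.931 CPM with the MEK inhibitor and 10.8 ± 3.10 CPM in non-invasive cells (log2 fold change -2.87 ± 0.44, adjusted p = 1.5e-05). ETS1 averaged 9.14 ± 1.07 CPM with the MEK inhibitor and 101 ± 14.5 CPM in non-invasive cells (log2 fold change -3.45 ± 0.28, adjusted p = 1e-09). ETS2 and ELK1 were not called. Within the AP-1 family the FOS-type subunits split. FOSL1, which ERK stabilises, had 20.8, 29.98, 6.20 and 4.25 CPM with the MEK inhibitor, against 152, 172, 124 and 127 CPM in non-invasive cells (log2 fold change -3.26 ± 0.48, adjusted p = 7.5e-05). FOSL2 was the 1 factor that rose, with 84.6, 97.8, 65.5 and 98.1 CPM in MEK inhibitor libraries, against 23.8, 25.2, 24.1 and 26.1 CPM in non-invasive libraries (log2 fold change 1.80 ± 0.24, adjusted p = 3.7e-06). Each of these separated the groups without overlap, in opposite directions. FOS, FOSB, JUN, JUNB and JUND were not called, with log2 fold changes between -0.48 and 0.71. Of the immediate early genes, EGR1 averaged 377 ± 137 CPM with the MEK inhibitor and 1075 ± 297 CPM in non-invasive cells (log2 fold change -1.51 ± 0.25, adjusted p = 0.0001). IER3 averaged 241 ± 64.6 CPM with the MEK inhibitor and 1313 ± 289 CPM in non-invasive cells (log2 fold change -2.44 ± 0.28, adjusted p = 2.4e-06). MYC, at 32.5 ± 20.8 CPM with the MEK inhibitor and 31.99 ± 14.5 CPM in non-invasive cells, was not called (adjusted p = 0.98).

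**Figure D1:**
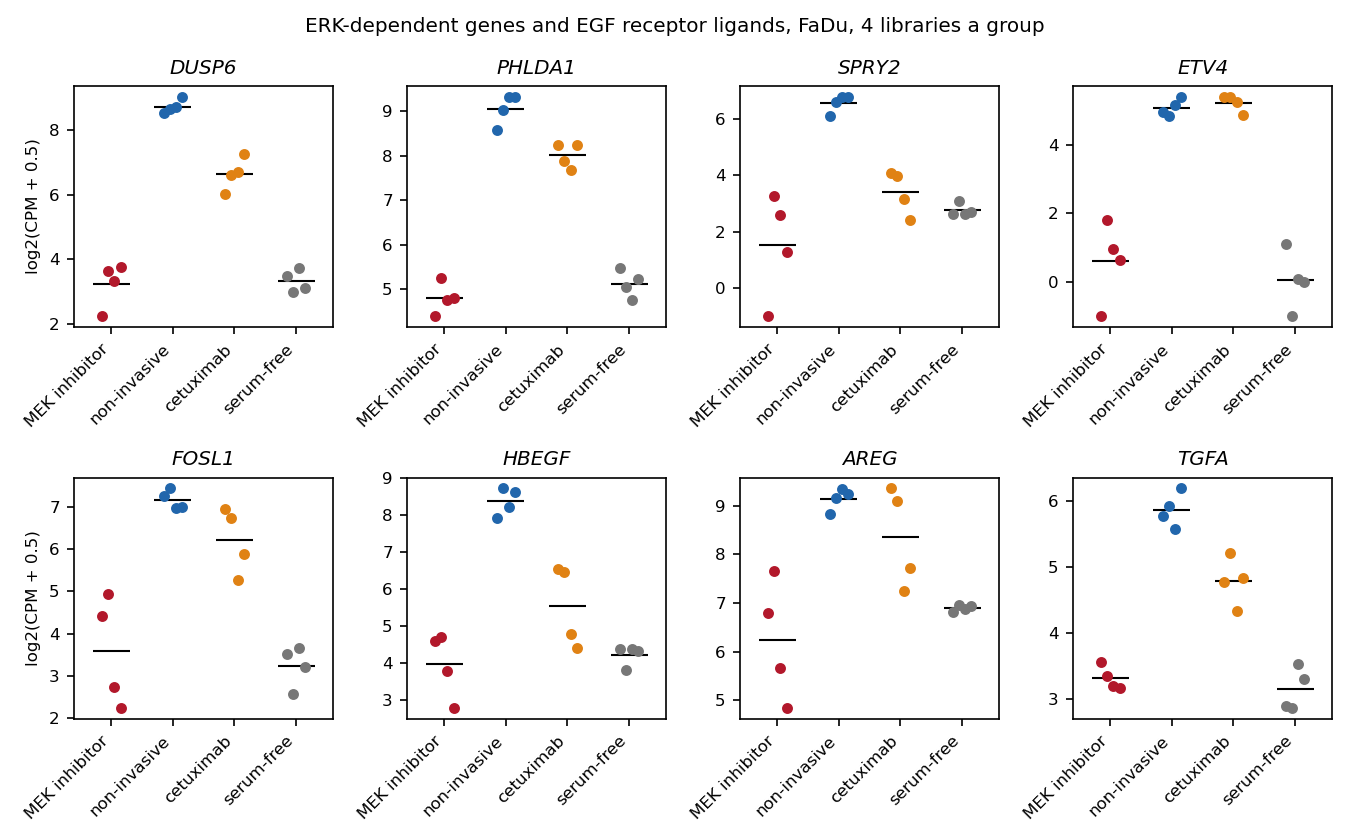
Level of 8 ERK output and EGF receptor ligand genes in each FaDu library, as log2(CPM + 0.5), in MEK inhibitor, non-invasive, cetuximab and serum-free groups. Points are libraries and horizontal lines are group means over 4 libraries. DUSP6 averaged 9.68 CPM with the MEK inhibitor, 104 CPM with cetuximab, 9.74 CPM in serum-free spheroids and 427 CPM in non-invasive cells, and ETV4 stayed at 37.1 CPM with cetuximab.

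Few genes of the receptors and of the cascade itself changed by as much. EGFR was higher, with 1029, 949.6, 861 and 1146 CPM in MEK inhibitor libraries, against 556, 583, 496 and 584 CPM in non-invasive libraries (log2 fold change 0.85 ± 0.13, adjusted p = 1.3e-05), without overlap. ERBB3, the kinase-poor partner receptor, averaged 56.8 ± 20.6 CPM with the MEK inhibitor and 32.1 ± 3.26 CPM in non-invasive cells (log2 fold change 0.81 ± 0.21, adjusted p = 0.0049). ERBB2 was not called (adjusted p = 0.26). Of 15 cascade genes 3 rose and 2 fell, a share near the 29.7% of all genes. KSR1, the scaffold that assembles RAF, MEK and ERK, had 21.5, 29.1, 30.4 and 30.2 CPM with the MEK inhibitor, against 7.39, 6.76, 6.69 and 6.29 CPM in non-invasive cells (log2 fold change 2.03 ± 0.22, adjusted p = 8.2e-08). The adaptor GAB1 rose by a log2 fold change of 1.21 ± 0.37 (adjusted p = 0.014), while the adaptor SHC1 fell by 0.99 ± 0.16 on the log2 scale (adjusted p = 2e-05). GRB2 had a log2 fold change of -0.32 ± 0.11 (adjusted p = 0.024). The GAB1 call was lost without MEK inhibitor replicate 3 or non-invasive replicate 2 (adjusted p = 0.051 and 0.062), and that of GRB2 without non-invasive replicate 2 or 4 (adjusted p = 0.059 and 0.051) and with all 40 libraries in 1 fit (adjusted p = 0.49). The genes of the inhibited kinases, MAP2K1 and MAP2K2, and the substrate gene MAPK3 were not called, with log2 fold changes between -0.25 and 0.28.

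Of 13 other receptor tyrosine kinases 3 rose and 4 fell, where 14.8% of all genes were higher and 14.9% lower. FGFR3, a fibroblast growth factor receptor, had 115, 67.1, 95.7 and 87.8 CPM with the MEK inhibitor, against 13.4, 9.78, 7.58 and 7.74 CPM in non-invasive cells (log2 fold change 3.24 ± 0.30, adjusted p = 2.7e-08). FGFR2 averaged 20.8 ± 5.27 CPM with the MEK inhibitor and 3.22 ± 1.06 CPM in non-invasive cells (log2 fold change 2.67 ± 0.39, adjusted p = 7.3e-06). DDR1, a collagen receptor, averaged 446 ± 92.9 CPM with the MEK inhibitor and 222 ± 18.5 CPM in non-invasive cells (log2 fold change 1.01 ± 0.12, adjusted p = 5e-07). These 3 receptors were higher in every MEK inhibitor library than in any non-invasive library. AXL, a receptor for GAS6, had 14.8, 25.1, 8.68 and 17.2 CPM with the MEK inhibitor, against 81.1, 73.4, 66.9 and 71.4 CPM in non-invasive cells (log2 fold change -2.15 ± 0.27, adjusted p = 1.8e-06). MET, the hepatocyte growth factor receptor, and its relative MST1R also fell, with log2 fold changes of -0.92 ± 0.13 and -1.38 ± 0.22 (adjusted p = 3.4e-06 and 1.7e-05). EPHA2 passed narrowly at -1.22 ± 0.44 (adjusted p = 0.044) and lost the call without any of 6 single libraries (adjusted p up to 0.12), with the replicate number as a block (adjusted p = 0.076) and with all 40 libraries in 1 fit (adjusted p = 0.17).

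Most ligands of the EGF receptor family were lower as well, 5 of 6 tested with 0 higher (median log2 fold change -2.12). HBEGF, a membrane-anchored ligand of EGFR and ERBB4, had 23.6, 25.6, 13.2 and 6.38 CPM with the MEK inhibitor, against 242, 422, 299.8 and 394 CPM in non-invasive cells (log2 fold change -4.33 ± 0.53, adjusted p = 1.1e-05). TGFA had 11.3, 9.69, 8.68 and 8.51 CPM with the MEK inhibitor, against 54.5, 60.3, 47.3 and 72.6 CPM in non-invasive cells (log2 fold change -2.63 ± 0.21, adjusted p = 1.9e-10). Both were low in all 4 MEK inhibitor libraries and the groups did not overlap. NRG1, a ligand of ERBB3 and ERBB4, averaged 10 ± 1.80 CPM with the MEK inhibitor and 32.4 ± 6.95 CPM in non-invasive cells (log2 fold change -1.69 ± 0.25, adjusted p = 9.3e-06). AREG had 111, 203, 50.2 and 28.3 CPM with the MEK inhibitor, against 457, 571, 650.0 and 602 CPM in non-invasive cells (log2 fold change -2.54 ± 0.54, adjusted p = 0.0021). EREG had 133, 195, 36.99 and 29.1 CPM with the MEK inhibitor, against 261, 280.2, 333 and 265 CPM in non-invasive cells (log2 fold change -1.54 ± 0.54, adjusted p = 0.041). For both, MEK inhibitor replicates 1 and 2 were well above replicates 3 and 4, yet below every non-invasive library. The call of EREG was lost without any one of 7 libraries, all but MEK inhibitor replicate 2 (adjusted p = 0.051 to 0.11). BTC, at 3.27 ± 1.25 CPM with the MEK inhibitor and 1.44 ± 0.762 CPM in non-invasive cells, was not called (adjusted p = 0.053), but was called higher without MEK inhibitor replicate 1 or non-invasive replicate 1 (adjusted p = 0.021 and 0.037), by DESeq2 (0.026) and with DESeq2's size factors (0.048).

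The 12 genes with the largest falls were taken among called genes at 10 CPM or more on average in 1 of the groups and without group overlap, so their lack of overlap is part of the choice. They included several that held almost no reads with the MEK inhibitor. IGFN1 (chromosome 1), an immunoglobulin-domain protein of muscle, and ESM1 (chromosome 5), a secreted proteoglycan, had 0 counts in all 4 MEK inhibitor libraries. Non-invasive libraries held 17.03, 19.1, 36.1 and 58.3 CPM of IGFN1 and 10.1, 13.7, 9.59 and 18.4 CPM of ESM1. With 3 counts over the 4 libraries set as the floor, IGFN1 was at least 182-fold lower and ESM1 at least 72.1-fold lower (adjusted p = 9.4e-05 and 3.9e-08). MMP1 (chromosome 11), the interstitial collagenase that cleaves type I collagen, had 1 count over the MEK inhibitor libraries, against 43.7, 73.4, 93.8 and 93.9 CPM in non-invasive libraries. The ratio of non-invasive to MEK inhibitor levels was 1269-fold, with a 95% counting interval of 227 to 50152 (adjusted p = 5e-07). IL1RL1 (chromosome 2), the receptor of the alarmin IL33, had 2 counts with the MEK inhibitor, against 66.1, 146, 134 and 150.2 CPM in non-invasive cells, a ratio of 1029.8-fold, with a 95% counting interval of 285 to 8508 (adjusted p = 5.3e-07). SERPINB2 (chromosome 18), an inhibitor of urokinase, had 1 count with the MEK inhibitor, against 12.5, 27.95, 27.4 and 22.3 CPM in non-invasive cells, a ratio of 376-fold, with a 95% counting interval of 67.1 to 14893 (adjusted p = 9e-08). All 5 genes were at or near 0 in every MEK inhibitor library and measured in every non-invasive library, and intervals cover counting error only.

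The other 7 had a few CPM or less with the MEK inhibitor. INHBA (chromosome 7), the subunit of activin A, had 3.17, 0.461, 1.03 and 0.425 CPM with the MEK inhibitor, against 32.5, 71.05, 118 and 108 CPM in non-invasive cells (log2 fold change -6.18 ± 0.68, adjusted p = 2e-06). PTGS2 (chromosome 1), the inducible cyclooxygenase of prostaglandin synthesis, had 5.99, 5.53, 3.51 and 4.04 CPM with the MEK inhibitor, against 78.9, 205, 309.8 and 354 CPM in non-invasive cells (log2 fold change -5.66 ± 0.69, adjusted p = 1.3e-05). In both genes non-invasive replicate 1 was the lowest of its group and still far above all MEK inhibitor libraries. HMGA2 (chromosome 12), an architectural chromatin protein, had 1.41, 1.38, 0.413 and 1.06 CPM with the MEK inhibitor, against 61.8, 49.6, 86.7 and 76.7 CPM in non-invasive cells (log2 fold change -6.03 ± 0.35, adjusted p = 7e-13). NAV3 (chromosome 12), a microtubule-binding protein, averaged 0.957 ± 0.428 CPM with the MEK inhibitor and 66.6 ± 5.95 CPM in non-invasive cells (log2 fold change -6.16 ± 0.40, adjusted p = 1.8e-11). RAB3B (chromosome 1), a GTPase of vesicle release, averaged 0.914 ± 0.694 CPM with the MEK inhibitor and 57.9 ± 5.03 CPM in non-invasive cells (log2 fold change -5.81 ± 0.37, adjusted p = 5.5e-12). NEURL1 (chromosome 10), a ubiquitin ligase, averaged 0.225 ± 0.326 CPM with the MEK inhibitor and 18.9 ± 5.30 CPM in non-invasive cells (log2 fold change -6.13 ± 0.59, adjusted p = 8e-09). TRPV3 (chromosome 17), a cation channel of keratinocytes, had 0, 2.08, 0 and 0 CPM with the MEK inhibitor, against 16.1, 27.5, 30.8 and 43.8 CPM in non-invasive cells (log2 fold change -5.70 ± 0.74, adjusted p = 8e-06). Among the MEK inhibitor libraries its reads were all in replicate 2.

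Promoters of these genes are shown because AP-1 is one endpoint of ERK signalling. The AP-1 motif TGANTCA, searched on both strands, lay within 250 bases before to 50 bases after the start in the RefSeq GRCh38.p14 promoters of 104 of 1440 genes called lower (7.22%), 66 of 1395 called higher (4.73%) and 422 of all 9465 tested genes with a promoter (4.46%). Of the 12 genes above, 10 had a promoter and 4 held the motif, at -191 for IL1RL1, -102 for SERPINB2, -119 for RAB3B and -104 for TRPV3, counted from the start to the first base of the match. VAV3, among the 12 largest rises given further on, held the motif as well, at -116. In lists of pathway outputs the AP-1 motif was in 1 of 13 promoters of feedback inhibitors (7.69%) and 1 of 16 of ETS, AP-1 and immediate early factors (6.25%). It was in 0 of 6 of the MAPK activity score and 0 of 5 of EGF receptor ligands. Beside the 4.46% of all genes, lists this small cannot show a lower or higher share. The ETS motif CCGGAAG, also searched on both strands, was in 342 of 1440 genes called lower (23.8%), 173 of 1395 called higher (12.4%) and 1939 of all 9465 (20.5%). It was in 0 of the 10 promoters of the largest falls, 0 of 13 of feedback inhibitors and 1 of 16 of ETS, AP-1 and immediate early factors. The windows of the 4 AP-1 matches among the largest falls are chr2:102337007-102337306 and chr18:63887455-63887754 on the plus strand and chr1:51990651-51990950 and chr17:3557763-3558062 on the minus strand. They are written 5′ to 3′ on the gene's strand with the motif in capitals. A match is a description of the letters and not evidence of binding.
IL1RL1: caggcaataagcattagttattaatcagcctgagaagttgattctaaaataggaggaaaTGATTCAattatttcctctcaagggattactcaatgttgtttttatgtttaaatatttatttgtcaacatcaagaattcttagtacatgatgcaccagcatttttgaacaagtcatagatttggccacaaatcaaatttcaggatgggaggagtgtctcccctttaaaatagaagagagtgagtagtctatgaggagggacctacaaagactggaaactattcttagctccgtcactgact
SERPINB2: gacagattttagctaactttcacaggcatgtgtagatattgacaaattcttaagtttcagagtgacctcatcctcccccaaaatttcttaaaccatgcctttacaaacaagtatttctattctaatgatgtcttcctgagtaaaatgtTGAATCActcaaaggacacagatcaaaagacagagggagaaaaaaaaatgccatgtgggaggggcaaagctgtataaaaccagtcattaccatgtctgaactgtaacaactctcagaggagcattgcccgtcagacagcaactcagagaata
RAB3B: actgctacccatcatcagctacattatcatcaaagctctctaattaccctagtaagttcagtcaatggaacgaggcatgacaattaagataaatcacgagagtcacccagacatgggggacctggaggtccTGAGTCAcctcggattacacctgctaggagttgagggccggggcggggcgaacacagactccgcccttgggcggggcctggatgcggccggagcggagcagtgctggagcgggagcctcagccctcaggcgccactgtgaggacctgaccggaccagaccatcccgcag
TRPV3: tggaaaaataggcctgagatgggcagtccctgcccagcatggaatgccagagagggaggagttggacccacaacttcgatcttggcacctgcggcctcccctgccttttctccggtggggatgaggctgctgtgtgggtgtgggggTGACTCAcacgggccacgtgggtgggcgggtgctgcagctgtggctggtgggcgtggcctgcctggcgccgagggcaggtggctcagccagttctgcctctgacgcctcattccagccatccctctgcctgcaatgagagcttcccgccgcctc

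Many genes by which epithelial cells remodel and hold matrix fell. Of 12 tested matrix proteases and inhibitors 7 fell and 3 rose (median log2 fold change -2.50). PLAUR, the urokinase receptor, had 5.29, 14.8, 3.72 and 1.49 CPM with the MEK inhibitor, against 60.1, 114, 67.1 and 80.8 CPM in non-invasive cells (log2 fold change -3.67 ± 0.82, adjusted p = 0.003). TIMP1, an inhibitor of metalloproteinases, had 38.1, 51.4, 60.97 and 53.4 CPM with the MEK inhibitor, against 412, 505, 589.8 and 506 CPM in non-invasive cells (log2 fold change -3.30 ± 0.18, adjusted p = 3.9e-13). Both separated the groups by a wide margin. The stromelysin MMP10 averaged 0.949 ± 0.856 CPM with the MEK inhibitor and 17.4 ± 4.05 CPM in non-invasive cells (log2 fold change -4.29 ± 0.71, adjusted p = 7.1e-05). PLAT, the tissue-type plasminogen activator, rose, at 30.5 ± 8.93 CPM with the MEK inhibitor and 12.6 ± 1.47 CPM in non-invasive cells (log2 fold change 1.28 ± 0.27, adjusted p = 0.00082). PLAU, the urokinase-type activator, was not called, with 55.3, 186, 146 and 118 CPM in MEK inhibitor libraries, against 214, 183, 131 and 75.5 CPM in non-invasive libraries (adjusted p = 0.84), and the groups overlapped. TIMP2 and TIMP3 rose, by log2 fold changes of 1.28 ± 0.29 and 1.46 ± 0.40 (adjusted p = 0.0012 and 0.0069). The AP-1 motif was in the promoters of 3 of 8 members with one (37.5%), MMP10, PLAUR and SERPINB2. Of all tested genes with a promoter 4.46% held it.

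Laminin, integrin and hemidesmosome genes, which anchor basal cells to the basement membrane, fell in 12 of 17 members and rose in 2 (median -1.61). The laminin chains LAMA3 and LAMB3 fell, with log2 fold changes of -1.47 ± 0.31, adjusted p = 0.00064, for LAMA3 and -1.35 ± 0.17, adjusted p = 1.2e-06, for LAMB3. ITGA2, the alpha subunit of a collagen receptor, had 16.6, 19.4, 19.6 and 9.78 CPM with the MEK inhibitor, against 139, 214, 204 and 225 CPM in non-invasive cells (log2 fold change -3.58 ± 0.23, adjusted p = 1e-11). The lowest non-invasive library of ITGA2 was several times above the highest MEK inhibitor library. Integrin genes ITGA3, ITGA5, ITGA6, ITGB1, ITGB4 and ITGB5 also fell, by log2 fold changes from -2.09 for ITGA6 to -1.23 for ITGB1. So did the hemidesmosome genes COL17A1 (log2 fold change -2.12 ± 0.16, adjusted p = 1.2e-10) and PLEC (log2 fold change -1.94 ± 0.17, adjusted p = 2.1e-09). ITGAV and ITGB8, which together form a receptor that activates TGF-beta, rose instead. ITGAV had 55.3, 59.04, 58.9 and 59.8 CPM with the MEK inhibitor, against 19.05, 33.8, 21.2 and 21.5 CPM in non-invasive cells (log2 fold change 1.29 ± 0.19, adjusted p = 6.1e-06). ITGB8 averaged 61.7 ± 23.04 CPM with the MEK inhibitor and 22.3 ± 4.83 CPM in non-invasive cells (log2 fold change 1.45 ± 0.28, adjusted p = 0.00032). Promoters of 3 of 12 members (25%), LAMA3, ITGA5 and DST, held the AP-1 motif, beside 4.46% of all tested genes.

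Actin and motility genes fell in 17 of 25 members and rose in 1 (median -0.77). FSCN1, which bundles actin in filopodia, had 61.7, 85.3, 81.01 and 79.98 CPM with the MEK inhibitor, against 387, 437, 399.7 and 457 CPM in non-invasive cells (log2 fold change -2.44 ± 0.13, adjusted p = 1.9e-13). The filamin FLNA, which crosslinks actin, fell by a log2 fold change of -1.16 ± 0.16 (adjusted p = 4.6e-06), and the myosin heavy chain MYH9 by -0.85 ± 0.11 (adjusted p = 2.2e-06). TPM1, a tropomyosin, was the 1 member that rose (log2 fold change 0.77 ± 0.16, adjusted p = 0.00056). Of 19 partial EMT (epithelial-mesenchymal transition) markers 14 fell and 2 rose (median -1.23), and several of these are integrin, laminin and protease genes counted above. CAVIN3, a caveola protein, averaged 2.81 ± 2.16 CPM with the MEK inhibitor and 36.3 ± 7.87 CPM in non-invasive cells (log2 fold change -3.59 ± 0.41, adjusted p = 2.3e-07). EMP3 averaged 2.92 ± 2.04 CPM with the MEK inhibitor and 14.9 ± 1.90 CPM in non-invasive cells (log2 fold change -2.30 ± 0.40, adjusted p = 7.2e-05). PDPN, a mucin-type protein of basal keratinocytes, went the other way, with 22.9, 20.5, 24.4 and 24.9 CPM in MEK inhibitor libraries, against 8.74, 5.59, 7.13 and 3.87 CPM in non-invasive libraries (log2 fold change 1.86 ± 0.27, adjusted p = 5.7e-06). THBS1 also rose (log2 fold change 0.80 ± 0.30, adjusted p = 0.047) but 1 member in place of 2 was called higher without any of 5 single libraries. The EMT transcription factors SNAI2 and TWIST1 were not called (adjusted p = 0.73 and 0.7). TWIST2 and ZEB1 fell (-1.58 ± 0.25, adjusted p = 2.7e-05, and -2.77 ± 0.87, adjusted p = 0.017), 1 of them when non-invasive replicate 3 was left out. S100A4, a calcium-binding protein, rose (log2 fold change 2.99 ± 0.29, adjusted p = 8e-09).

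**Figure D2:**
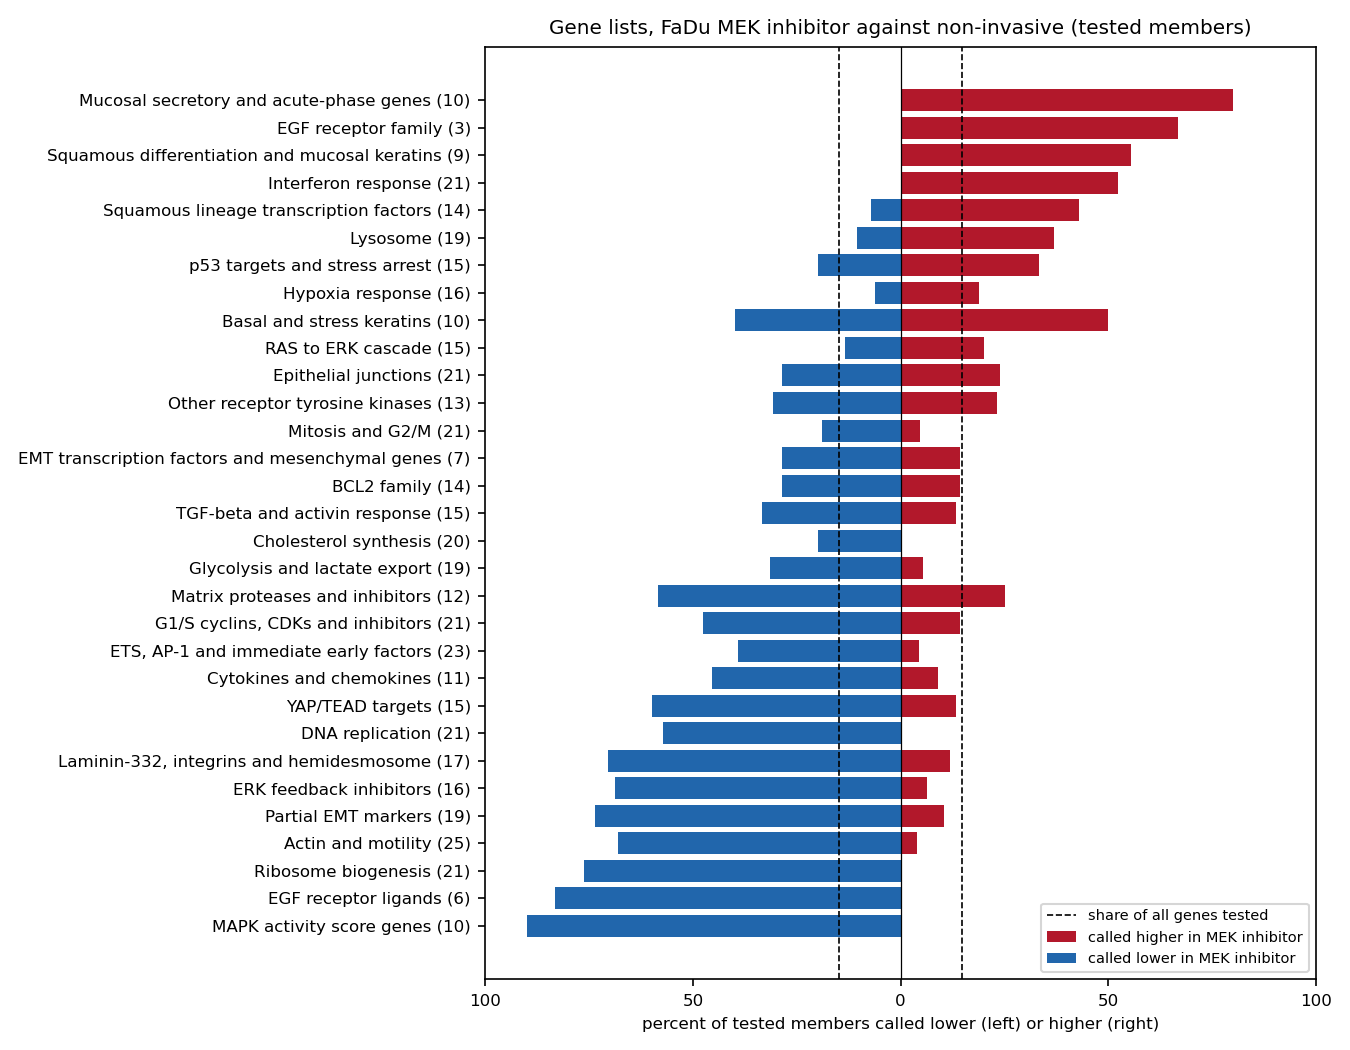
Percent of tested members of each gene list called lower (left) and higher (right) in FaDu MEK inhibitor spheroids against non-invasive cells, with dashed lines at the share of all 12131 tested genes (14.9% lower, 14.8% higher). Pathway output, adhesion, actin and ribosome lists lie mostly to the left and secretory and interferon lists to the right, for example 9 of 10 MAPK score genes lower and 8 of 10 secretory genes higher.

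Many cell cycle genes of the G1 and S phases were lower with the MEK inhibitor, while most mitotic genes were not called. Of 21 G1/S genes 10 fell and 3 rose, where 14.9% of all genes were lower and 14.8% higher. The number that rose was near that share. Between 7 and 11 fell when 1 library was left out, and 6 to 11 over all alternatives. CCND1, the cyclin D that ERK induces, had 348, 312, 363 and 377 CPM with the MEK inhibitor, against 552, 509.7, 551 and 499.8 CPM in non-invasive cells (log2 fold change -0.59 ± 0.11, adjusted p = 0.00014), without overlap. CDK6 and CDK2 fell by log2 fold changes of -1.20 ± 0.14 and -0.86 ± 0.18 (adjusted p = 1.5e-07 and 0.0005). The CDK inhibitors differed in direction. CDKN1A (p21) had 46.9, 73.3, 46.9 and 45.7 CPM with the MEK inhibitor, against 243, 413, 357 and 379 CPM in non-invasive cells (log2 fold change -2.71 ± 0.42, adjusted p = 0.00013). CDKN2B (p15) had 36.7, 33.7, 40.9 and 41.5 CPM with the MEK inhibitor, against 10.1, 7.92, 10.3 and 9.92 CPM in non-invasive cells (log2 fold change 1.997 ± 0.28, adjusted p = 4.6e-06). Neither gene's groups overlapped. CDKN1B (p27) rose with overlap, at 17.6, 34.4, 43.2 and 49.6 CPM with the MEK inhibitor, against 16.4, 17.9, 23.9 and 15.97 CPM in non-invasive cells (log2 fold change 0.98 ± 0.28, adjusted p = 0.0086).

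DNA replication genes fell in 12 of 21 members and rose in 0 (median log2 fold change -0.67), and 9 to 15 fell when 1 library was left out. CDC6, which loads the MCM helicase on origins, had 28.5, 31.1, 26.04 and 24.5 CPM with the MEK inhibitor, against 83.1, 78.5, 75.1 and 58.5 CPM in non-invasive cells (log2 fold change -1.42 ± 0.19, adjusted p = 2.2e-06). Its partner CDT1 had 13.7, 19.4, 17.4 and 10.8 CPM with the MEK inhibitor, against 36.1, 36.6, 32.3 and 32.4 CPM in non-invasive cells (log2 fold change -1.16 ± 0.23, adjusted p = 0.00037). RRM2, a subunit of ribonucleotide reductase, had 15.5, 35.3, 22.1 and 23.2 CPM with the MEK inhibitor, against 63.9, 60.6, 46.8 and 49.6 CPM in non-invasive cells (log2 fold change -1.19 ± 0.22, adjusted p = 0.00017). None of the 3 overlapped between groups. Of 21 mitotic and G2/M genes 4 fell and 1 rose (median -0.31), with 7 lower without MEK inhibitor replicate 2 and 2 lower without non-invasive replicate 1. Of all genes 14.9% were lower and 14.8% higher, so the number of mitotic genes that fell was near that share. KIF23 and AURKB fell (-0.91 ± 0.17, adjusted p = 0.00015, and -0.73 ± 0.22, adjusted p = 0.011), CENPF rose (log2 fold change 0.53 ± 0.15, adjusted p = 0.0099). TOP2A, MKI67 and CDK1 were not called (adjusted p = 0.38, 0.58 and 0.1).

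The E2F motif TTTCCCGC, on either strand, was in the promoters of 7 of 18 DNA replication genes (38.9%), 0 of 16 mitotic genes and 2.73% of all tested genes. The CHR motif TTTGAA was in those of 11 of 16 mitotic genes (68.8%) and 9.58% of all. Examples are CDT1, chr16:88803539-88803838 on the plus strand, with the E2F motif on the opposite strand at -35, and CDK1, chr10:60778081-60778380 on the plus strand, with CHR at -161. Capitals mark the match.
CDT1: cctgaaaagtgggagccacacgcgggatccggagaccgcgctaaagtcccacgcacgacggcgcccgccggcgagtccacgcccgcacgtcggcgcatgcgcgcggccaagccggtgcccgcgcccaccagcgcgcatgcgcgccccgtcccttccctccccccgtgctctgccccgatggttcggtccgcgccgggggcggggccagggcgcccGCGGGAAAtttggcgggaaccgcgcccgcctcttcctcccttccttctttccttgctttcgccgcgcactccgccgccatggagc
CDK1: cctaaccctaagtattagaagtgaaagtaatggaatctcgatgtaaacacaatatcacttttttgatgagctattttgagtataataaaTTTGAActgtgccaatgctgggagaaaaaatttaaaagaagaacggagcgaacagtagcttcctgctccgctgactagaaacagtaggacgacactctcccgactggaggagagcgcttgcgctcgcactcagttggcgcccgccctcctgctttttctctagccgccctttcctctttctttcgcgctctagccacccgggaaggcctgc

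The unselected references showed how these levels compared with cetuximab treatment and with no added EGF. How far cetuximab blocked the receptor was not measured. All comparisons with the MEK inhibitor use the same 4 MEK inhibitor libraries. Against cetuximab spheroids, 19 of 21 replication genes and 17 of 21 mitotic genes were lower with the MEK inhibitor and none of either list was higher, where 11.2% of all genes were lower and 8.54% higher. Against serum-free spheroids, 20 of 21 replication genes and 21 of 21 mitotic genes were higher and 0 lower, where 10.8% of all genes were higher and 8.63% lower. MKI67, the proliferation marker, averaged 314 ± 104 CPM with the MEK inhibitor, 507 ± 154 CPM with cetuximab, 27.1 ± 3.03 CPM in serum-free spheroids and 351 ± 36.6 CPM in non-invasive cells. CDC6 averaged 27.5 ± 2.92 CPM with the MEK inhibitor, 79 ± 22.9 CPM with cetuximab, 3.54 ± 1.51 CPM in serum-free spheroids and 73.8 ± 10.7 CPM in non-invasive cells. The MEK inhibitor spheroids stood between the serum-free and the cetuximab spheroids for both genes, with log2 fold changes of -0.69 ± 0.20, adjusted p = 0.016, and -1.51 ± 0.19, adjusted p = 2.6e-06, against cetuximab and 3.53 ± 0.23, adjusted p = 7.2e-11, and 2.89 ± 0.25, adjusted p = 1.7e-09, against serum-free.

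**Figure D3:**
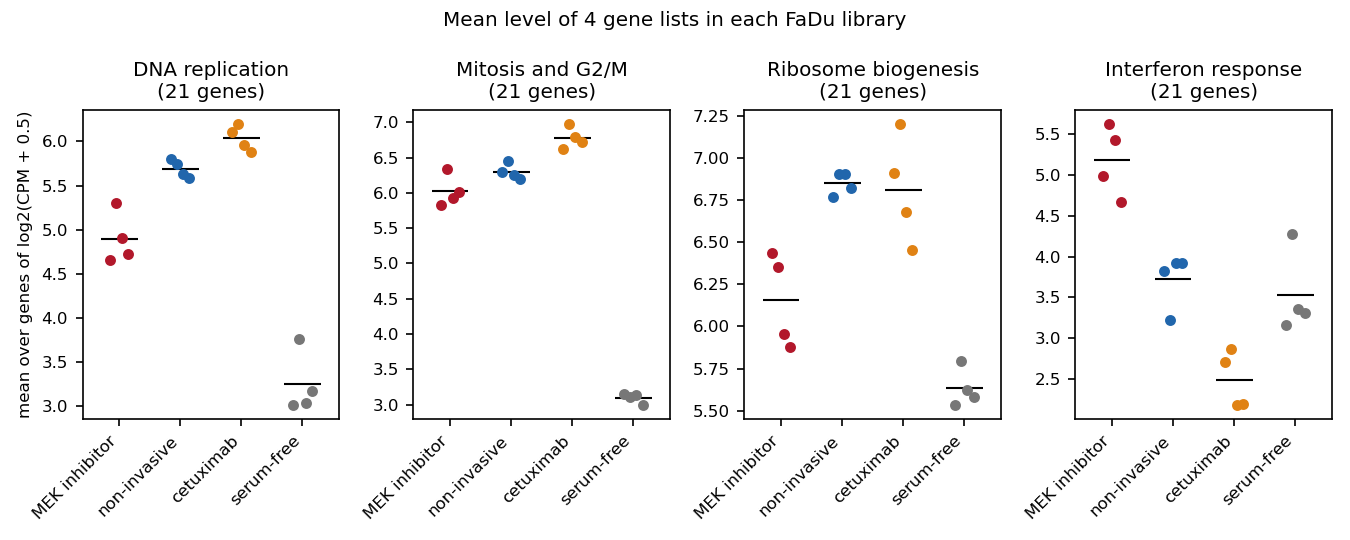
Mean log2(CPM + 0.5) over the tested members of 4 gene lists in each FaDu library, with MEK inhibitor left of non-invasive, cetuximab and serum-free libraries and horizontal lines at group means. DNA replication genes were at 4.66, 5.31, 4.91 and 4.72 in MEK inhibitor libraries, 6.11, 6.19, 5.96 and 5.88 in cetuximab, 3.02, 3.77, 3.03 and 3.17 in serum-free and 5.80, 5.74, 5.63 and 5.59 in non-invasive libraries.

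Of the growth and metabolic lists, that of ribosome biogenesis held the most lower genes. Ribosome biogenesis genes fell in 16 of 21 members and rose in 0 (median -0.68), with 10 lower without MEK inhibitor replicate 3. NOLC1, a nucleolar phosphoprotein, had 132, 121, 90.7 and 87.8 CPM with the MEK inhibitor, against 190.0, 199, 217 and 185 CPM in non-invasive cells (log2 fold change -0.88 ± 0.14, adjusted p = 3.6e-05). NCL, the nucleolin gene, had 1762, 1299.7, 942 and 871 CPM with the MEK inhibitor, against 1752, 2049.7, 1983 and 2029 CPM in non-invasive cells (log2 fold change -0.68 ± 0.24, adjusted p = 0.034). NCL overlapped through MEK inhibitor replicate 1, the library with the highest mitochondrial share of the 8, and NOLC1 did not overlap. Of 20 cholesterol synthesis genes 4 fell and 0 rose, a share near the 14.9% of all genes called lower, with 2 lower without MEK inhibitor replicate 1 or 2, and 1 higher without replicate 1. Against serum-free spheroids, 16 of the 20 were higher with the MEK inhibitor and 1 lower. Of 19 glycolysis and lactate export genes 6 fell and 1 rose, where 14.9% of all genes were lower and 14.8% higher. Between 4 and 7 fell and between 0 and 2 rose when 1 library was left out. Over all alternatives 3 to 7 fell. The lactate exporter SLC16A3 had 95.5, 119, 126 and 182 CPM with the MEK inhibitor, against 256, 251, 218 and 289 CPM in non-invasive cells (log2 fold change -0.95 ± 0.20, adjusted p = 0.00079), and the enolase gene ENO2 fell by 1.13 ± 0.24 on the log2 scale (adjusted p = 0.00071).

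The 12 largest rises were led by secreted and differentiation genes. CP (chromosome 3), the copper carrier ceruloplasmin, had 104, 143, 148 and 176 CPM with the MEK inhibitor, against 1.34, 0.699, 0.446 and 0.484 CPM in non-invasive cells (log2 fold change 7.52 ± 0.54, adjusted p = 3.8e-09). IGFL1 (chromosome 19), a secreted protein of skin, had 62.03, 131, 119.9 and 92.95 CPM with the MEK inhibitor, against 0.896, 1.16, 1.11 and 1.21 CPM in non-invasive cells (log2 fold change 6.50 ± 0.51, adjusted p = 1.1e-08). Both were clearly expressed in all MEK inhibitor libraries and stood near or under 1 CPM in all non-invasive libraries. The complement genes C1R and C1S (chromosome 12) and CFB (chromosome 6), the alternative pathway factor B, rose together. C1R averaged 13.98 ± 4.33 CPM with the MEK inhibitor and 0.233 ± 0.190 CPM in non-invasive cells (log2 fold change 5.74 ± 0.63, adjusted p = 1.7e-07). C1S averaged 29.6 ± 12.8 CPM with the MEK inhibitor and 0.699 ± 0.467 CPM in non-invasive cells (log2 fold change 5.35 ± 0.57, adjusted p = 7.3e-08). CFB averaged 31.9 ± 13.9 CPM with the MEK inhibitor and 0.638 ± 0.299 CPM in non-invasive cells (log2 fold change 5.58 ± 0.51, adjusted p = 9.5e-09). EDN2 (chromosome 1), an endothelin peptide, had 4.58, 8.53, 15.9 and 12.8 CPM with the MEK inhibitor and 1 count in the non-invasive libraries, a ratio of 194-fold with a 95% counting interval of 34.5 to 7719 (adjusted p = 5.3e-07). VAV3 (chromosome 1), a guanine nucleotide exchange factor, had 30.7, 35.97, 36.4 and 76.6 CPM with the MEK inhibitor, against 1.57, 2.10, 0.669 and 0.242 CPM in non-invasive cells (log2 fold change 5.26 ± 0.46, adjusted p = 5.1e-09). APCDD1 (chromosome 18), a Wnt inhibitor, averaged 11.8 ± 4.28 CPM with the MEK inhibitor and 0.340 ± 0.292 CPM in non-invasive cells (log2 fold change 4.96 ± 0.66, adjusted p = 3.2e-06). TMT1A (chromosome 12), a methyltransferase, averaged 10.8 ± 2.89 CPM with the MEK inhibitor and 0.338 ± 0.533 CPM in non-invasive cells (log2 fold change 4.86 ± 0.62, adjusted p = 9.4e-07). TNNT3 (chromosome 11), a troponin, averaged 92.6 ± 37.4 CPM with the MEK inhibitor and 3.18 ± 2.53 CPM in non-invasive cells (log2 fold change 4.83 ± 0.37, adjusted p = 2.8e-09). These genes were chosen like the largest falls, so their lack of overlap was set by the choice.

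Mucosal secretory and acute-phase genes rose in 8 of 10 members and fell in 0 (median log2 fold change 3.23). SLPI, a secreted protease inhibitor of mucosal surfaces, had 122, 131, 155 and 119 CPM with the MEK inhibitor, against 10.98, 16.5, 11.4 and 16.2 CPM in non-invasive cells (log2 fold change 3.26 ± 0.26, adjusted p = 5.6e-10). MUC1, a transmembrane mucin, had 75.8, 81.2, 88.04 and 88.7 CPM with the MEK inhibitor, against 7.62, 8.62, 5.80 and 13.3 CPM in non-invasive cells (log2 fold change 3.24 ± 0.26, adjusted p = 3.3e-10). C3, the central complement component, averaged 30.3 ± 7.59 CPM with the MEK inhibitor and 3.25 ± 1.29 CPM in non-invasive cells (log2 fold change 3.21 ± 0.36, adjusted p = 9.7e-08). LCN2, an iron-binding lipocalin, averaged 13.7 ± 5.35 CPM with the MEK inhibitor and 2.29 ± 1.27 CPM in non-invasive cells (log2 fold change 2.58 ± 0.36, adjusted p = 3e-06). ATP6V1B1, a proton pump subunit, was at 0 counts in all non-invasive libraries and 1.06 to 4.58 CPM with the MEK inhibitor, at least 12.6-fold higher (adjusted p = 6.2e-05). AQP3 and SCNN1A were not called (adjusted p = 0.46 and 0.88).

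Keratins, the intermediate filaments that mark epithelial layers, moved in both directions. Of 9 squamous differentiation genes 5 rose and 0 fell (median 1.17), or 1 fell without MEK inhibitor replicate 1, and of 10 basal and stress keratins 5 rose and 4 fell. The mucosal pair KRT4 and KRT13 was among the 12 largest rises. KRT4 had 107, 128, 44.6 and 39.6 CPM with the MEK inhibitor, against 0, 0.699, 0.446 and 1.45 CPM in non-invasive cells (log2 fold change 6.90 ± 0.65, adjusted p = 4.1e-07). KRT13 had 115, 114, 34.1 and 39.8 CPM with the MEK inhibitor, against 0.224, 1.63, 1.11 and 1.45 CPM in non-invasive cells (log2 fold change 6.06 ± 0.66, adjusted p = 2.3e-06). MEK inhibitor replicates 1 and 2 were well above replicates 3 and 4 in both, and all were above the non-invasive libraries. KRT5, the basal keratin, had 917, 1008, 1105 and 1120.1 CPM with the MEK inhibitor, against 100.2, 63.6, 84.04 and 59.3 CPM in non-invasive cells (log2 fold change 3.76 ± 0.36, adjusted p = 3.9e-07). KRT15 averaged 163 ± 47.3 CPM with the MEK inhibitor and 32.8 ± 10.5 CPM in non-invasive cells (log2 fold change 2.31 ± 0.30, adjusted p = 8.9e-06). KRT19 averaged 1204 ± 334 CPM with the MEK inhibitor and 584 ± 89.2 CPM in non-invasive cells (log2 fold change 1.04 ± 0.17, adjusted p = 4.2e-05). The wound keratin KRT6A and the basal KRT14 fell, at 0.998 ± 0.446 and 1.29 ± 1.69 CPM with the MEK inhibitor and 25.9 ± 6.85 and 12.5 ± 5.24 CPM in non-invasive cells (-4.63 ± 0.47, adjusted p = 1.5e-08, and -3.18 ± 0.54, adjusted p = 6.2e-05). KRT18, a simple-epithelial keratin, also fell (log2 fold change -0.98 ± 0.16, adjusted p = 4.4e-05). KRT6A, KRT14, KRT16 and KRT17 have near-identical copies between which reads can be split, so their values are uncertain. S100A9, a calprotectin subunit, averaged 17.4 ± 7.77 CPM with the MEK inhibitor and 1.21 ± 0.308 CPM in non-invasive cells (log2 fold change 3.82 ± 0.56, adjusted p = 7.8e-06).

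**Figure D4:**
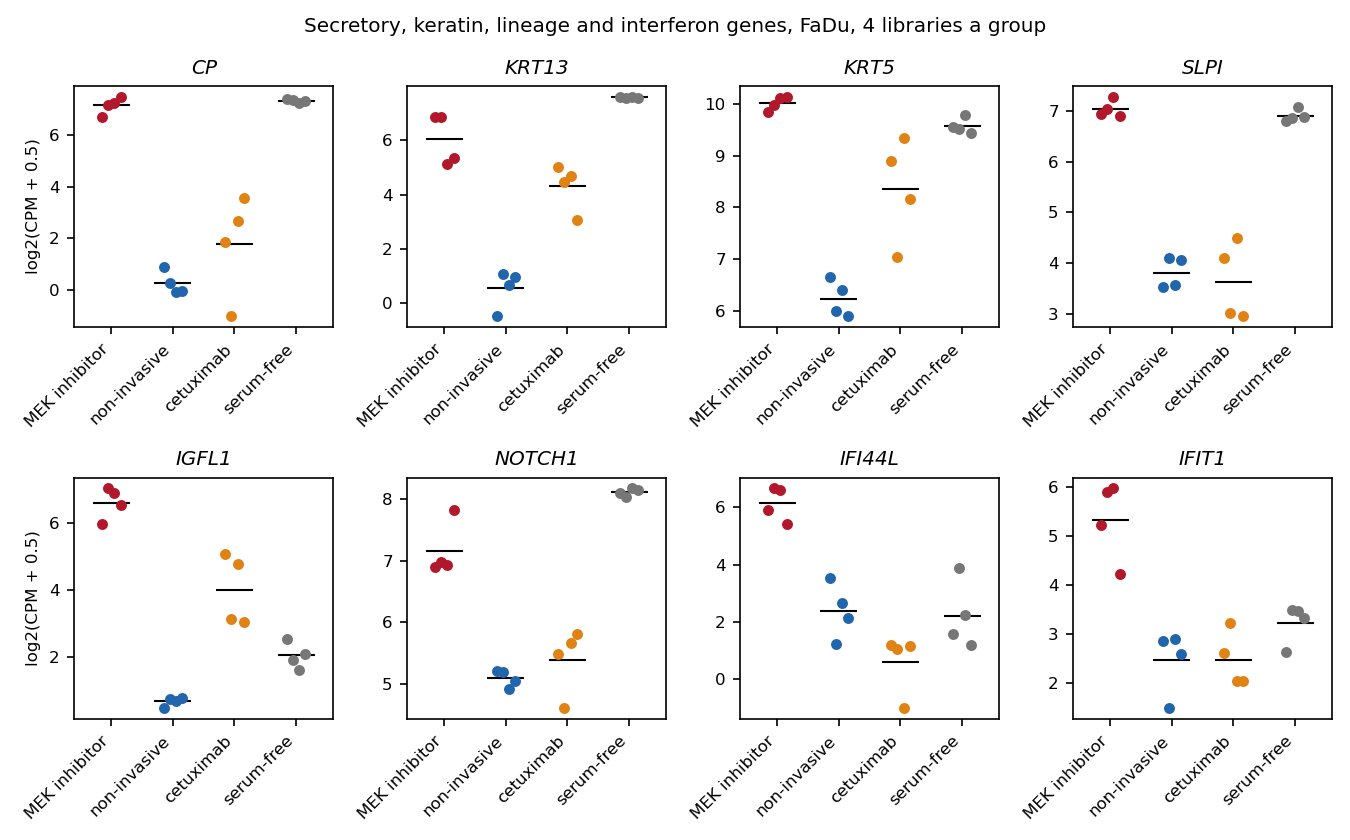
Level of 8 genes that were higher with the MEK inhibitor in each FaDu library, as log2(CPM + 0.5), in MEK inhibitor, non-invasive, cetuximab and serum-free groups. Points are libraries and lines are group means. CP averaged 142 CPM with the MEK inhibitor and 159 CPM in serum-free spheroids, against 5.03 CPM with cetuximab and 0.743 CPM in non-invasive cells.

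Of 14 squamous lineage transcription factors 6 rose and 1 fell. NOTCH1, the receptor that drives squamous differentiation, had 119, 126, 122 and 226 CPM with the MEK inhibitor, against 36.5, 36.1, 29.6 and 32.4 CPM in non-invasive cells (log2 fold change 2.14 ± 0.21, adjusted p = 1.5e-08). Its target HES1 averaged 425 ± 94.7 CPM with the MEK inhibitor and 209 ± 57.8 CPM in non-invasive cells (log2 fold change 1.03 ± 0.34, adjusted p = 0.031). ELF3, an epithelial ETS factor, had 541, 509, 275 and 329 CPM with the MEK inhibitor, against 89.4, 110.2, 57.1 and 65.3 CPM in non-invasive cells (log2 fold change 2.36 ± 0.22, adjusted p = 1.5e-08). SOX2, the stem cell factor of foregut epithelia, averaged 24.9 ± 9.65 CPM with the MEK inhibitor and 3.06 ± 0.637 CPM in non-invasive cells (log2 fold change 3.02 ± 0.32, adjusted p = 4.2e-08). All 4 were higher in each MEK inhibitor library than in any non-invasive library. TP63, TFAP2A and TFAP2C were not called (adjusted p = 0.51, 0.72 and 0.81). KLF5 fell, with overlap (log2 fold change -1.06 ± 0.25, adjusted p = 0.0036). Junction genes had 5 members higher and 6 lower of 21, where 14.8% of all genes were higher and 14.9% lower. CLDN1, a tight junction claudin, had 142, 175, 229 and 168 CPM with the MEK inhibitor, against 12.5, 19.6, 7.58 and 17.7 CPM in non-invasive cells (log2 fold change 3.64 ± 0.39, adjusted p = 1.5e-06). The desmosome genes DSP and DSC3 rose (0.62 ± 0.16, adjusted p = 0.0054, and 0.95 ± 0.16, adjusted p = 5e-05) while PKP2 and CLDN7 fell (-1.66 ± 0.17, adjusted p = 3e-08, and -1.27 ± 0.30, adjusted p = 0.0039). CDH1, E-cadherin, was not called (adjusted p = 0.17). Against cetuximab spheroids 11 junction genes were higher with the MEK inhibitor and 1 lower (2 without cetuximab replicate 4, MEK inhibitor replicate 1 or MEK inhibitor replicate 3), CDH1 among those higher (log2 fold change 0.97 ± 0.26, adjusted p = 0.011). In that comparison 8.54% of all genes were higher and 11.2% lower.

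Interferon-stimulated genes, which antiviral signalling induces, rose in 11 of 21 members and fell in 0 (median 1.69), with 8 to 13 higher when 1 library was left out. Of all genes 14.8% were higher. IFIT1, which binds foreign RNA, had 36.7, 58.8, 62 and 18.3 CPM with the MEK inhibitor, against 6.72, 2.33, 6.91 and 5.56 CPM in non-invasive cells (log2 fold change 3.02 ± 0.43, adjusted p = 7.4e-06). IFI44L had 59.6, 101, 98.2 and 42.3 CPM with the MEK inhibitor, against 10.98, 1.86, 5.80 and 3.87 CPM in non-invasive cells (log2 fold change 3.73 ± 0.62, adjusted p = 0.00035). In both, MEK inhibitor replicate 4 was the lowest of its group and above every non-invasive library. PARP9, an interferon-induced protein of the PARP family, averaged 78.9 ± 13.2 CPM with the MEK inhibitor and 24.4 ± 4.18 CPM in non-invasive cells (log2 fold change 1.69 ± 0.21, adjusted p = 7.1e-07). ISG15 and IFI6 were not called (adjusted p = 0.074 and 0.056). Against cetuximab spheroids all 21 tested members were higher with the MEK inhibitor (median 3.06), where 8.54% of all genes were higher. Against serum-free spheroids 13 were higher and 1 lower (median 1.42), where 10.8% of all genes were higher and 8.63% lower. The number that was lower was not above that share. The lower member was SAMD9 (log2 fold change -0.51 ± 0.15, adjusted p = 0.015). In this comparison 0 were lower without MEK inhibitor replicate 3 or 4 or serum-free replicate 4. IFI44L was at 1.27 ± 0.852 CPM with cetuximab and 5.64 ± 5.72 CPM in serum-free spheroids. IFI27, a mitochondrial interferon-induced protein, was at 95.9 ± 44.95 CPM with the MEK inhibitor, 5.58 ± 4.61 CPM with cetuximab, 2.23 ± 1.32 CPM in serum-free spheroids and 38.5 ± 18.8 CPM in non-invasive cells. Of 11 cytokine and chemokine genes 5 fell against non-invasive cells, IL1RL1 and PTGS2 among them, and 1 rose, or 2 without MEK inhibitor replicate 4. CXCL8, a neutrophil chemokine, averaged 20.5 ± 6.96 CPM with the MEK inhibitor and 59.1 ± 14.4 CPM in non-invasive cells (log2 fold change -1.52 ± 0.24, adjusted p = 2.7e-05). IL1B averaged 55.1 ± 24 CPM with the MEK inhibitor and 122 ± 19.6 CPM in non-invasive cells (log2 fold change -1.13 ± 0.36, adjusted p = 0.026). CCL5, a T cell chemokine, rose, at 8.68 ± 2.90 CPM with the MEK inhibitor and 1.40 ± 1.07 CPM in non-invasive cells (log2 fold change 2.61 ± 0.62, adjusted p = 0.0021).

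Cell survival genes moved on both sides. Of 14 BCL2 family genes 4 fell and 2 rose, where 14.9% of all genes were lower and 14.8% higher. The number that rose was near that share. The survival gene BCL2L1 (BCL-XL) had 37.4, 24.4, 33.9 and 24.04 CPM with the MEK inhibitor, against 78.9, 61.96, 72.2 and 77.2 CPM in non-invasive cells (log2 fold change -1.28 ± 0.23, adjusted p = 0.00013). MCL1 averaged 309.8 ± 49.3 CPM with the MEK inhibitor and 503 ± 58.8 CPM in non-invasive cells (log2 fold change -0.70 ± 0.16, adjusted p = 0.0012). The killer genes BAK1 and PMAIP1 also fell (-0.96 ± 0.26, adjusted p = 0.0058, and -0.57 ± 0.20, adjusted p = 0.029). BCL2L11 (BIM), which ERK represses, had 7.40, 20.99, 10.3 and 12.5 CPM with the MEK inhibitor, against 10.1, 12.8, 6.91 and 6.05 CPM in non-invasive cells, and was not called (adjusted p = 0.37). Its relative BMF was at 0.207 to 2.47 CPM with the MEK inhibitor and 0 counts in all non-invasive libraries, at least 7.29-fold higher (adjusted p = 0.006). BID rose narrowly (log2 fold change 0.67 ± 0.25, adjusted p = 0.046), and 1 member in place of 2 rose without any of 5 single libraries. Of 15 p53 target and stress genes 5 rose and 3 fell, beside the same shares of all genes. TP53INP1, SESN1 and RRM2B rose (2.24 ± 0.61, adjusted p = 0.0063, 1.10 ± 0.24, adjusted p = 0.001, and 0.80 ± 0.16, adjusted p = 0.00053), CDKN1A and PLK3 fell (PLK3 log2 fold change -2.12 ± 0.42, adjusted p = 0.00061). MDM2, the negative regulator of p53, was not called (adjusted p = 0.57).

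Direct comparison with cetuximab, which is directed at the receptor of the same pathway, called 2395 of 12131 genes (19.7%), 1036 higher and 1359 lower with the MEK inhibitor. Both groups carry the label unselected, so cell selection does not differ between them. Among the 5 largest falls ETV4 had 0, 3.00, 1.45 and 1.06 CPM with the MEK inhibitor, against 41.1, 41.3, 37.2 and 28.7 CPM with cetuximab (log2 fold change -4.62 ± 0.38, adjusted p = 2.1e-09). CALB2, the calcium-binding protein calretinin, had 4.23, 8.53, 2.69 and 4.25 CPM with the MEK inhibitor, against 95.9, 152, 122 and 107 CPM with cetuximab (log2 fold change -4.59 ± 0.27, adjusted p = 1.6e-11). HMGA2 averaged 1.07 ± 0.464 CPM with the MEK inhibitor and 33.1 ± 12.1 CPM with cetuximab (log2 fold change -4.96 ± 0.35, adjusted p = 2.5e-10). NEURL1 averaged 0.225 ± 0.326 CPM with the MEK inhibitor and 17.9 ± 11.03 CPM with cetuximab (log2 fold change -6.03 ± 0.60, adjusted p = 5.3e-08). SHISAL1 averaged 1.14 ± 0.830 CPM with the MEK inhibitor and 14.6 ± 5.38 CPM with cetuximab (log2 fold change -3.55 ± 0.47, adjusted p = 5.2e-06). In non-invasive cells ETV4 averaged 33.7 ± 6.04 CPM, CALB2 154 ± 13.6 CPM, NEURL1 18.9 ± 5.30 CPM and SHISAL1 7.21 ± 2.02 CPM. For DUSP6 and PHLDA1 the cetuximab spheroids lay between the MEK inhibitor spheroids and the non-invasive cells. DUSP6 averaged 9.68 ± 3.91 CPM with the MEK inhibitor and 104 ± 36.6 CPM with cetuximab (log2 fold change -3.39 ± 0.31, adjusted p = 2.8e-07). PHLDA1 averaged 27.9 ± 7.01 CPM with the MEK inhibitor and 262 ± 50.4 CPM with cetuximab (log2 fold change -3.22 ± 0.22, adjusted p = 4.6e-10). Of the 12 genes with the largest falls against non-invasive cells, 6 were lower than with cetuximab too and 6 were not called, IGFN1, ESM1, SERPINB2, INHBA, TRPV3 and PTGS2. Those 6 were low in both groups, with PTGS2 the highest at 4.77 ± 1.18 CPM with the MEK inhibitor and 12.4 ± 9.24 CPM with cetuximab (adjusted p = 0.21), and INHBA at 1.27 ± 1.30 CPM with the MEK inhibitor and 1.91 ± 1.61 CPM with cetuximab (adjusted p = 0.64).

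The largest rises over cetuximab were IFI44L, CFB, CP, LY6D and IFI27. CFB had 49.7, 19.6, 36.2 and 22.3 CPM with the MEK inhibitor, against 0.447, 0, 1.21 and 0.688 CPM with cetuximab (log2 fold change 5.57 ± 0.51, adjusted p = 4.4e-08). CP had 104, 143, 148 and 176 CPM with the MEK inhibitor, against 3.13, 0, 5.82 and 11.2 CPM with cetuximab (log2 fold change 4.69 ± 0.41, adjusted p = 2.1e-07). LY6D, a surface marker of squamous cells, averaged 23.4 ± 13.3 CPM with the MEK inhibitor and 0.891 ± 0.810 CPM with cetuximab (log2 fold change 4.55 ± 0.49, adjusted p = 2.1e-07). The interferon genes IFI44L and IFI27 gave log2 fold changes of 5.88 ± 0.74, adjusted p = 5.9e-05, and 4.21 ± 0.50, adjusted p = 1e-05.

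Against serum-free spheroids 2355 genes (19.4%) were called, 1308 higher and 1047 lower with the MEK inhibitor, and a fit by limma-voom called 1189 higher and 1425 lower. None of the 12 genes with the largest falls against non-invasive cells was called here by edgeR, and 1, HMGA2, had an unadjusted p under 0.05. Several genes named above had similar means in both groups. DUSP6 averaged 9.68 ± 3.91 CPM with the MEK inhibitor and 9.74 ± 2.43 CPM in serum-free spheroids (log2 fold change 0.05 ± 0.35, adjusted p = 0.94). CP averaged 142 ± 29.7 CPM with the MEK inhibitor and 159 ± 7.40 CPM in serum-free spheroids (log2 fold change -0.15 ± 0.32, adjusted p = 0.79). SLPI averaged 132 ± 16.5 CPM with the MEK inhibitor and 120.2 ± 9.93 CPM in serum-free spheroids (log2 fold change 0.13 ± 0.23, adjusted p = 0.73). The 5 largest rises were IFI27, IGFL1 and the mitotic genes HJURP, OIP5 and BIRC5. HJURP, the chaperone of centromeric histone, had 16.2, 17.5, 16.7 and 13.2 CPM with the MEK inhibitor, against 0.817, 0.704, 1.42 and 0.252 CPM in serum-free spheroids (log2 fold change 4.30 ± 0.39, adjusted p = 4.1e-09). BIRC5, survivin, had 89.5, 179, 113 and 115 CPM with the MEK inhibitor, against 8.58, 8.45, 9.08 and 4.03 CPM in serum-free spheroids (log2 fold change 4.06 ± 0.23, adjusted p = 2.3e-12). OIP5 gave 4.20 ± 0.43, adjusted p = 4.2e-08, IGFL1 4.79 ± 0.44, adjusted p = 2.1e-07, and IFI27 5.33 ± 0.57, adjusted p = 1.6e-06. The 5 largest falls were ATP6V1B1, FYB1, MPPED2, BCAS1 and PLLP. ATP6V1B1 had 4.58, 1.38, 1.65 and 1.06 CPM with the MEK inhibitor, against 49.4, 53.3, 63.3 and 50.4 CPM in serum-free spheroids (log2 fold change -4.74 ± 0.39, adjusted p = 3.3e-09). BCAS1, of myelinating and epithelial cells, had 1.06, 0.922, 2.48 and 1.70 CPM with the MEK inhibitor, against 17.97, 23.2, 24.97 and 28.99 CPM in serum-free spheroids (log2 fold change -3.89 ± 0.47, adjusted p = 1.4e-06). FYB1, MPPED2 and PLLP averaged 1.71 ± 2.07, 0.589 ± 0.528 and 0.969 ± 0.657 CPM with the MEK inhibitor and 24.99 ± 1.57, 10.5 ± 2.49 and 13.4 ± 2.11 CPM in serum-free spheroids (adjusted p = 1.6e-05, 0.0008 and 1.6e-05).

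The same contrast in Kyse30 differed from FaDu in 645 of 12652 genes (5.10%) by the contrast of effects (Kyse30 minus FaDu) in a joint fit of all 40 libraries, with 287 higher (2.27%) and 358 lower (2.83%). Without the shallow Kyse30 invasive library, which is in neither compared group but enters that fit, 1448 were called, and without FaDu non-invasive replicate 2 it was 428. Kyse30 non-invasive replicates 1 and 3 held 17.4% and 19.3% mitochondrial counts and 6.27% and 9.63% MALAT1, against 8.22% and 8.95%, and 1.68% and 1.91%, in replicates 2 and 4. Its part in the differences between lines was not tested beyond leaving out single libraries. Several ERK outputs fell less in Kyse30. The interaction was positive and called for 5 of 10 MAPK score genes and 3 of 16 feedback inhibitors, and negative for 0 and 0. DUSP6 had 24.95, 23.8, 12.5 and 30.4 CPM in Kyse30 MEK inhibitor libraries, against 81.5, 102, 83.1 and 102 CPM in Kyse30 non-invasive libraries. The DUSP6 effect was -1.996 ± 0.36 in Kyse30 and -5.43 ± 0.42 in FaDu on the log2 scale, a difference of 3.43 ± 0.52 (adjusted p = 2.4e-05). The Kyse30 groups did not overlap either, but lay closer together. SPRY2 gave -0.59 ± 0.37 in Kyse30 and -4.45 ± 0.44 in FaDu (difference 3.86 ± 0.57, adjusted p = 1.5e-05), and ETV4 -0.53 ± 0.35 in Kyse30 and -4.49 ± 0.45 in FaDu (difference 3.96 ± 0.57, adjusted p = 1.1e-05). IL1RL1 had 0.662, 0.268, 0.260 and 0.249 CPM in Kyse30 MEK inhibitor libraries, against 93.7, 115, 105 and 103 CPM in Kyse30 non-invasive libraries (interaction adjusted p = 0.64).

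DNA replication genes also differed between the lines, with a called positive interaction in 11 of 21 and a negative one in 0 (median 1.58, against -0.05 for all genes). CDC6 had 35.1, 38.6, 24.9 and 29.9 CPM in Kyse30 MEK inhibitor libraries, against 13.8, 17.98, 17.3 and 20.3 CPM in Kyse30 non-invasive libraries. All Kyse30 MEK inhibitor libraries lay above the non-invasive ones, the reverse of FaDu. The CDC6 effect was 0.89 ± 0.33 in Kyse30 (adjusted p = 0.085) and -1.43 ± 0.33 in FaDu (difference 2.32 ± 0.47, adjusted p = 0.0012). The CDT1 effect was 0.96 ± 0.36 in Kyse30 and -1.16 ± 0.36 in FaDu (difference 2.13 ± 0.51, adjusted p = 0.0084). PTGS2 had 132, 195, 37.4 and 50.5 CPM in Kyse30 MEK inhibitor libraries, against 48.4, 85.1, 100.5 and 100.3 CPM in Kyse30 non-invasive libraries, with overlap and a difference between lines of 5.97 ± 0.80 (adjusted p = 6.9e-06). COL12A1, a fibril-associated collagen, had 35.1, 21.96, 34 and 10.5 CPM in Kyse30 MEK inhibitor libraries, against 0.944, 0.217, 0 and 0.902 CPM in Kyse30 non-invasive libraries. In FaDu it averaged 6.69 ± 1.72 CPM with the MEK inhibitor and 22.6 ± 3.50 CPM in non-invasive cells (difference 7.25 ± 0.72, adjusted p = 2.5e-09). SPOCK1, a matrix proteoglycan at 0 counts in FaDu MEK inhibitor libraries, had 104, 97.8, 121 and 84.4 CPM in Kyse30 MEK inhibitor libraries, against 84.6, 97.7, 80.1 and 93.1 CPM in Kyse30 non-invasive libraries (interaction adjusted p = 4e-07). RAPGEF3, an exchange factor activated by cyclic AMP, and WSCD1 were the other 2 of the 5 largest positive differences (adjusted p = 4.1e-06 and 0.0059), RAPGEF3 with 2 counts in FaDu MEK inhibitor libraries.

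The 5 largest negative differences were IGFL1, CP, C1S, LY6D and C1R, which rose in FaDu. CP had 18.3, 15.3, 4.93 and 6.47 CPM in Kyse30 MEK inhibitor libraries, against 5.35, 8.66, 23.9 and 1.80 CPM in Kyse30 non-invasive libraries, with overlap. Its effects were 0.28 ± 0.53 in Kyse30 and 7.51 ± 0.69 in FaDu (difference -7.23 ± 0.88, adjusted p = 4.5e-07). LY6D fell in Kyse30, at 10.4, 8.84, 4.93 and 4.73 CPM with the MEK inhibitor, against 33.3, 19.1, 18.1 and 28.2 CPM in non-invasive cells (effect -1.75 ± 0.45, difference -6.36 ± 0.72, adjusted p = 8.3e-08). IGFL1 and C1S had few Kyse30 reads, 12 and 1 counts in all MEK inhibitor libraries and 20 and 3 in all non-invasive libraries. The differences were -7.33 ± 0.98 for IGFL1 and -5.84 ± 1.12 for C1R (adjusted p = 5.4e-06 and 0.00076). C1S was called as well (adjusted p = 0.033). That call was lost without Kyse30 non-invasive replicate 2 (adjusted p = 0.98), FaDu MEK inhibitor replicate 1 or any of Kyse30 MEK inhibitor replicates 1, 3 and 4 (adjusted p = 0.052 to 0.054). Of 10 secretory genes 5 had a called negative interaction and 0 a positive one, with 2 negative without Kyse30 non-invasive replicate 1 and 3 without FaDu MEK inhibitor replicate 1. KRT13 rose in both lines, with 807, 910.0, 1063 and 1016 CPM in Kyse30 MEK inhibitor libraries, against 489, 127, 102 and 151 CPM in Kyse30 non-invasive libraries (effects 2.15 ± 0.53 in Kyse30 and 6.06 ± 0.77 in FaDu, difference -3.91 ± 0.95, adjusted p = 0.011). NOTCH1 and CLDN1 did not pass in Kyse30 (adjusted p = 0.57 and 0.84) and differed from FaDu by -2.52 ± 0.47 and -3.82 ± 0.58 (adjusted p = 0.00053 and 3.5e-05). Interferon genes differed in 3 of 21 members, all lower in Kyse30 relative to FaDu. IFIT1 had 6.40, 10.7, 23.9 and 11.9 CPM in Kyse30 MEK inhibitor libraries, against 224, 6.72, 11.2 and 22.5 CPM in Kyse30 non-invasive libraries. Among these, non-invasive replicate 1 was far above the rest. IFIT2 and IFIT3 also had a called negative interaction, with 759 and 784 CPM in that replicate. Replicates 2, 3 and 4 of that group held 119, 115 and 167 CPM of IFIT2 and 65.4, 55.4 and 106 CPM of IFIT3.

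**Figure D5:**
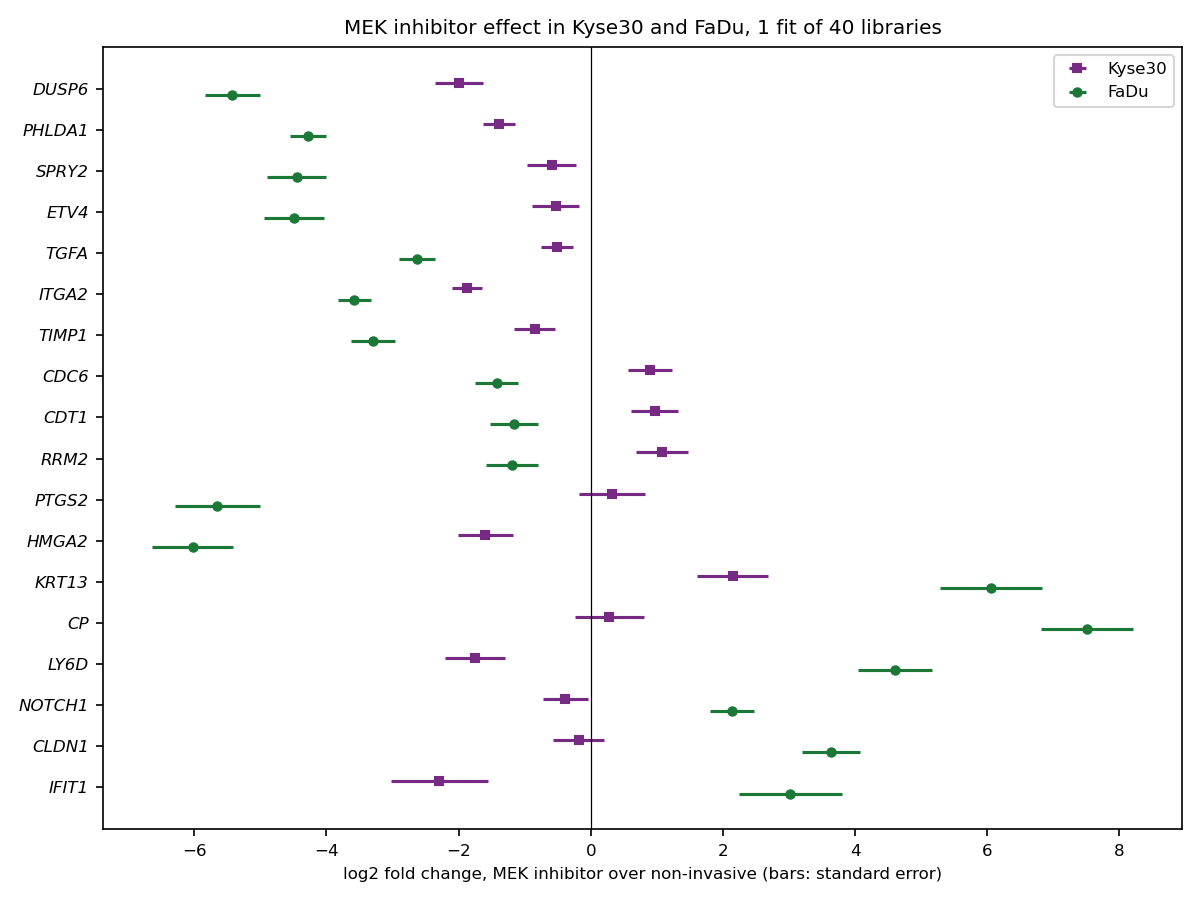
Log2 fold change of MEK inhibitor over non-invasive for 18 genes in Kyse30 (squares, above) and FaDu (circles), from 1 fit of 40 libraries. Bars are 1 approximate standard error, derived from the F value of the test. DUSP6 lies at -1.996 in Kyse30 and -5.43 in FaDu, CDC6 at 0.89 and -1.43, and CP at 0.28 and 7.51.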

How the data were processed

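Libraries came from a QuantSeq 3' kit (Lexogen), per the labels' protocols, which reads each transcript at its 3' end, so counts do not grow with transcript length. The authors deposited whole-number counts per gene, not normalized, for 12655 genes and 40 libraries. STAR and HTSeq on GRCh38 (hg38) are named in the submitters' processing notes, and versions, the annotation and the use of strand were not given in the sources used here, so a gene and an antisense partner are not told apart. No gene in the table had under 142 counts in all, and the rule that chose the genes is not stated. All column names matched a sample, with 0 left over.

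Groups follow the sample titles. Counts of all 20 FaDu libraries entered 1 fit with edgeR 4.0.16 in R 4.3.3 (TMM scaling, default filter by group, robust quasi-likelihood F test), and Benjamini-Hochberg adjustment ran over 12131 genes. The fit over 40 libraries tested 12652. Named genes are the 12 largest fold changes in each direction among those called, at a group mean of at least 10 CPM and without group overlap, and the 5 largest for each other comparison, beside members of 35 gene lists. The members and lists were chosen with earlier results of these data known, so no list is independent support. A group with 0 counts was set to a floor of 3 counts over the group, and intervals (95%) and floors cover counting error only, since no molecular identifiers are named. Motifs AP-1 (TGANTCA), ETS (CCGGAAG), E2F (TTTCCCGC) and CHR (TTTGAA) were searched on both strands of RefSeq GRCh38.p14 promoters, matched by symbol for 9465 of 12131 genes. DESeq2 1.42.0, limma-voom (limma 3.58.1), other filters and left-out libraries were alternatives. The test was tried on simulated counts first. The labels name no pairing of replicate numbers, and the main fit used none. Some list members are counted but not reported here.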

Additional observations from a re-analysis of the deposited data

Results flagged for a closer look

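Among 296 groups of 4 libraries looked at, 30 held 1 library far from the other 3, by Dixon's gap test at 95%, 19 in MEK inhibitor and 11 in non-invasive groups. About 1 in 20 groups stands out so by chance. Those of MMP1, SERPINB2 and EDN2 rest on 1 count and that of IL1RL1 on 2, with the other 3 libraries at 0, so the gap fills the range by construction and they show nothing beyond these counts. MEK inhibitor replicate 1 was the highest of its group for ERBB3 (87.4 CPM). MEK inhibitor replicate 1 was the lowest of its group for GRB2 (147 CPM), KSR1 (21.5 CPM), GAB1 (3.52 CPM) and BTC (1.41 CPM). MEK inhibitor replicate 2 was the highest of its group for IL1RL1 (0.461 CPM), SERPINB2 (0.231 CPM), TRPV3 (2.08 CPM), EPHA2 (35.7 CPM), MCM4 (241 CPM), MCM7 (131 CPM), CDKN1A (73.3 CPM), KIF23 (51 CPM) and NPM1 (410 CPM). MEK inhibitor replicate 3 was the highest of its group for MMP1 (0.207 CPM). MEK inhibitor replicate 3 was the lowest of its group for FOS (45.1 CPM). MEK inhibitor replicate 4 was the highest of its group for VAV3 (76.6 CPM) and NOTCH1 (226 CPM). MEK inhibitor replicate 4 was the lowest of its group for PARP9 (59.1 CPM). Non-invasive replicate 1 was the highest of its group for EDN2 (0.224 CPM) and TNNT3 (6.95 CPM). Non-invasive replicate 1 was the lowest of its group for RAB3B (50.4 CPM), DUSP5 (147 CPM) and MMP10 (11.4 CPM). Non-invasive replicate 2 was the highest of its group for ITGAV (33.8 CPM). Non-invasive replicate 2 was the lowest of its group for GAB1 (2.56 CPM), CDKN2B (7.92 CPM), PARP9 (18.2 CPM) and CTSD (106 CPM). Non-invasive replicate 3 was the lowest of its group for C1S (0 CPM).

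The effect of MEK inhibitor against non-invasive differed between the lines, by the interaction test in 1 fit of 40 libraries with an adjusted p under 0.05, for 54 of 154 genes looked at, against 5.10% of all genes. The 154 include 10 chosen for the size of this difference and others chosen for a large FaDu effect, so nothing is read from their share. Values are the Kyse30 effect minus the FaDu effect on the log2 scale. Those of SPOCK1, RAPGEF3 and C1S rest on a few counts or none in at least 1 group, so their size is uncertain. For IFIT1, IFIT3 and CCL5, Kyse30 non-invasive replicate 1 was far above the rest of its group. CCL5 had 45.9 CPM there, against 3.68, 0.385 and 6.99 CPM in replicates 2, 3 and 4. Over the alternatives SPOCK1 ran from 6.23 to 8.61, WSCD1 from 5.45 to 8.07, RAPGEF3 from 5.90 to 8.48 and C1S from -8.13 to -3.83. It was positive for SPOCK1 (8.34), COL12A1 (7.25), WSCD1 (7.13), RAPGEF3 (6.30), PTGS2 (5.98), NAV3 (5.48), NEURL1 (4.69), FST (4.45) and HMGA2 (4.43). Further positive differences were those of ETV4 (3.96), SPRY2 (3.86), TGFB1 (3.56), DUSP6 (3.43), PHLDA1 (2.89), TIMP1 (2.45), CDC6 (2.32), RRM2 (2.27) and KIF23 (2.23). Further positive differences were those of CDT1 (2.13), TGFA (2.12), ETV5 (1.85), ITGA2 (1.71), MCM4 (1.71), MCM7 (1.70), CDK6 (1.35) and FSCN1 (1.00). It was negative for IGFL1 (-7.33), CP (-7.23), C1S (-6.60), LY6D (-6.36), C1R (-5.84), IFIT1 (-5.31), VAV3 (-5.03), CCL5 (-4.54) and TNNT3 (-4.35). Further negative differences were those of KRT13 (-3.91), CLDN1 (-3.82), CFB (-3.70), IFIT3 (-3.67), TIMP3 (-3.22), CDKN2B (-2.87), MUC1 (-2.77), TMT1A (-2.69) and KRT17 (-2.58). Further negative differences were those of NOTCH1 (-2.52), SLPI (-2.43), TIMP2 (-1.90), FGFR3 (-1.87), ITGB8 (-1.81), KSR1 (-1.59), FOSL2 (-1.47), ITGAV (-1.27) and ELF3 (-1.22). It was also negative for KRT19 (-1.15).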

How the results depend on the processing

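Of 2885 repeats of 179 single-gene results under the alternatives, 2844 kept direction and side of the threshold, 34 lost the call, 7 gained one and 0 reversed, and 161 of the results kept their side in every repeat. With all 40 libraries in 1 fit, genes called between FaDu MEK inhibitor and non-invasive numbered 1993 (1024 higher, 969 lower) in place of 3602, and the share of lower genes with an AP-1 promoter match was 10.1% in place of 7.22%. That fit also lost ERBB3, GRB2, EPHA2, SPRED2, TIMP3, TPM1, AURKB, CENPF, KRT17 and IFI44. IL11 was lost under limma-voom (adjusted p = 0.051), and CDK1, BIRC5 and CXCL1 were called without MEK inhibitor replicate 4, 2 and 4 (adjusted p = 0.045, 0.017 and 0.048). The cause of these changes was not tested.

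Genes whose effect differed between the lines numbered 645, and 1194 with DESeq2 (568 higher, 626 lower), all 645 among them. They numbered 1448 without the shallow Kyse30 invasive library (736 higher, 712 lower), an alternative chosen after seeing the data, and 428 without FaDu non-invasive replicate 2. Leaving out 1 library at a time gave 2893 to 3550 calls against non-invasive, 1971 to 2438 against cetuximab, 1746 to 2549 against serum-free and 428 to 701 between the lines, and AP-1 shares of 7.02 to 7.88%. Against serum-free, limma-voom called 45.5% of its genes higher, against 55.5% in edgeR.

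In FaDu, deviations of samples with the same replicate number had correlations of -0.189 to 0.12 against non-invasive, -0.049 to 0.31 against cetuximab and -0.016 to 0.016 against serum-free. Such low correlations do not exclude a pairing. As in FaDu, Kyse30 MEK inhibitor replicates 1 and 2 were above 3 and 4 for EREG (169, 245, 64.4 and 69.5 CPM) and DUSP5 (96.9, 106, 43.1 and 27.1 CPM). DUSP6 did not split so (24.95, 23.8, 12.5 and 30.4 CPM). Whether the numbers mark a shared batch was not tested. With the replicate number as a block, 3513 genes were called against non-invasive, 2314 against cetuximab, 2301 against serum-free and 577 between the lines, the AP-1 share was 6.97%, and among the single-gene results EPHA2 alone lost its call. With 4 libraries a group, differences in genes of a few counts are bounded by counting error, and MEK inhibitor replicate 1, with 2814487 counts, is the shallowest of the FaDu MEK inhibitor and non-invasive libraries.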

Other observations

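Targets of the YAP and TEAD growth regulators fell in 9 of 15 tested members and rose in 2 in MEK inhibitor spheroids against non-invasive cells (median log2 fold change -0.70). DLC1, a GTPase-activating protein, had 2.82, 1.38, 0.207 and 0.638 CPM with the MEK inhibitor, against 22.2, 25.4, 20.7 and 27.8 CPM in non-invasive cells (log2 fold change -4.39 ± 0.45, adjusted p = 2.1e-08). NT5E, the ectonucleotidase CD73, had 6.34, 3.92, 6.41 and 3.40 CPM with the MEK inhibitor, against 53.8, 35.6, 37.7 and 46.4 CPM in non-invasive cells (log2 fold change -3.12 ± 0.33, adjusted p = 4e-08). Both were low in every MEK inhibitor library. F3, tissue factor, averaged 212 ± 77.6 CPM with the MEK inhibitor and 615 ± 37.04 CPM in non-invasive cells (log2 fold change -1.53 ± 0.25, adjusted p = 8.2e-05). The classical target CCN2 rose, with 107, 148, 75.4 and 98.3 CPM in MEK inhibitor libraries, against 78.4, 52.4, 46.1 and 41.1 CPM in non-invasive libraries (log2 fold change 0.97 ± 0.28, adjusted p = 0.012), and CCN1 was not called (adjusted p = 0.18). MEK inhibitor replicate 3 and non-invasive replicate 1 met in CCN2, so those groups overlapped.

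Of 15 TGF-beta and activin genes 5 fell and 2 rose, where 14.9% of all genes were lower and 14.8% higher. The ligand genes went apart, as TGFB1 had 1.41, 2.08, 1.24 and 1.28 CPM with the MEK inhibitor, against 24.6, 31.9, 34.3 and 43.5 CPM in non-invasive cells (log2 fold change -4.46 ± 0.36, adjusted p = 3.3e-10), and TGFB2 had 3.88, 4.15, 6.20 and 9.78 CPM with the MEK inhibitor, against 0, 0, 0.446 and 0.968 CPM in non-invasive cells (log2 fold change 4.01 ± 0.66, adjusted p = 3.6e-05). FST, follistatin, which binds activin, had 6.70, 16.8, 6.41 and 10 CPM with the MEK inhibitor, against 239.8, 293, 453 and 402 CPM in non-invasive cells (log2 fold change -5.10 ± 0.51, adjusted p = 1.4e-06), in the same direction as the activin subunit gene INHBA. None of the 3 overlapped. Lysosome genes rose in 7 of 19 members and fell in 2 (1 without any of 4 single libraries), beside the same shares of all genes. The number that fell was not above that share. Between 5 and 7 rose when 1 library was left out, and 3 to 7 over all alternatives. CTSD, the protease cathepsin D, had 340.5, 368, 407 and 409 CPM with the MEK inhibitor, against 145, 106, 149.6 and 146 CPM in non-invasive cells (log2 fold change 1.48 ± 0.12, adjusted p = 8e-10). Of 16 hypoxia genes 3 rose and 1 fell, not above the 29.7% of all genes called. EGLN3, an oxygen-sensing hydroxylase, had 44.8, 84.6, 96.9 and 175 CPM with the MEK inhibitor, against 25.3, 23.3, 11.8 and 17.9 CPM in non-invasive cells (log2 fold change 2.36 ± 0.37, adjusted p = 9.1e-05), and VEGFA fell (log2 fold change -0.51 ± 0.19, adjusted p = 0.043), a call lost without any one of 7 libraries.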
